A study of Mus musculus with 4 samples.

Results

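Importins, exportins and nucleoporins are the proteins that carry cargo between cytoplasm and nucleus and that build the pore through which the cargo passes. They were followed here in RNA-seq of mouse testis cells labelled as pachytene spermatocytes, the meiotic prophase cells in which homologous chromosomes are fully paired. Genes were taken by symbol: importin alpha (Kpna plus a number), importin beta and its relatives (Kpnb1, and Ipo or Tnpo plus a number), exportins (Xpo genes and Cse1l) and nucleoporins (Nup plus a number). The rule found 50 of the 50763 genes of the count table, after 1 row named as a pseudogene was left out. Of these 50 genes, 49 had a count in at least 1 library, and all 49 passed the filter on low counts and were tested. The gene without a count was the readthrough gene Ipo11-lrrc70.

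Polyadenylated RNA from testis was sequenced in 4 libraries, 2 from WT mice and 2 from Hsf5 knockdown mice, both labelled as pachytene spermatocytes, which the series text calls purified. Markers of spermatids in WT and of somatic cells in the knockdown go against a pure population (values below). Hsf5 encodes heat shock factor 5, a testis-expressed relative of the heat shock transcription factors, and the study compared the knockdown with WT to follow gene expression during pachynema. The sources used here do not give how the knockdown was made, the strain and age of the mice, the number of animals behind a library or the means of cell purification. The labels call the replicates biological without naming animals, so every p-value sets the group difference against the spread between these libraries. With 2 libraries a group, that spread is estimated partly from other genes. Levels are in CPM, read counts divided by a library size that was scaled by the trimmed mean of M values (TMM). A gene is said to have risen or fallen where edgeR's quasi-likelihood test, adjusted by Benjamini-Hochberg over all 23594 genes tested, gave an adjusted p below 0.05. Values are listed as WT replicate 1, WT replicate 2, knockdown replicate 1 and knockdown replicate 2, and a log2 fold change is knockdown minus WT with its approximate standard error (SE).

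Importins bind a nuclear localization signal in the cytoplasm, directly or, for importin beta, through an importin alpha adaptor, and release the cargo when they meet Ran bound to GTP in the nucleus. Exportins bind cargo together with Ran-GTP and release it in the cytoplasm, where GTP is hydrolysed. The pore itself is made of stacked rings of scaffold nucleoporins, a central channel lined with phenylalanine-glycine repeats, and asymmetric structures on the cytoplasmic and nuclear faces. In the testis the importin alpha proteins are known to replace each other as germ cells pass from spermatogonia through meiosis to spermatids.

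Hsf5 itself was at 586 and 449 CPM in WT and at 287 and 238 CPM in the knockdown. The 2 knockdown values were under the 2 WT values, and the log2 fold change was -0.98 (SE 0.31, adjusted p = 0.0217 in edgeR's quasi-likelihood test). The call was lost with scaling on library totals (-0.55, adjusted p = 0.116), without WT replicate 1 (-0.79, adjusted p = 0.219) and without WT replicate 2 (-1.13, adjusted p = 0.0725). The depth was 33287428 to 42479164 counts per library, and the correlation of log2 CPM was 0.602 to 0.705 between groups against 0.962 within WT and 0.976 within the knockdown. The 10 pachytene markers had counts in every library, and 2 of them rose and 6 fell. The 2 that rose were Sycp1 and Hormad1. The summed CPM of the 10 was 12129 and 12001 in WT and 4220 and 3409 in the knockdown. Much of this sum came from Ldhc (5274, 4326, 279 and 188) and Ybx2 (3078, 3456, 1135 and 898), so it does not stand for each marker. All 7 spermatid markers fell, from a summed CPM of 3187 and 1529 in WT to 0.487 and 0.412, with Prm2 at 0 in both knockdown libraries and Acrv1 at 0 in knockdown replicate 2. Spermatogonial markers rose in 6 of 7 (summed CPM 44.5, 62.7, 574 and 554). Sertoli cell markers rose in 8 of 8 (142, 379, 3375 and 3937) and Leydig cell markers in 5 of 5 (104, 693, 1191 and 2395). Of 4 peritubular myoid markers tested 3 rose (3.78, 6.32, 96.3 and 23.3; Tagln was not tested and was at 0 in WT replicate 2 and knockdown replicate 2), as did 4 of 5 immune markers (7.24, 6.42, 66.3 and 27.5). The marker lists and the genes below therefore moved between the same libraries, and the part of the marker lists in each result was not tested. In such bulk samples fewer cells of a type and less RNA per cell cannot be told apart.

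The promoters of 38 of the genes are in RefSeq's table (GRCm38.p6, an older build than the mm39 of the counts). They are shown because the targeted gene belongs to the heat shock factor family, whose better-known members bind inverted GAA repeats. The letters GAANNTTC and TTCNNGAA, each its own reverse complement, were searched in the 250 bases before and 50 bases after each start. Either motif was in 6.67% of the 45 promoters of these genes and in 15.1% of all 32851 promoters. The 3 matches are printed 5′ to 3′ on the gene's strand with the matching letters in capitals. They lie 34 bases before the start of Ipo7 (chr7:110018270-110018299, plus strand), 29 bases before that of Tnpo1 (chr13:98926395-98926424, minus strand) and 164 bases before that of Nup58 (chr14:60251625-60251654, minus strand). The Ipo7 stretch falls in an exon of another annotated Ipo7 transcript, and the other two overlap no annotated exon. A match is a run of letters, not a bound site.
Ipo7: cgccgaggcgaGAAGGTTCtatccggggcc
Tnpo1: cgaccgccgccGAAGATTCccgcgccgggc
Nup58: cagggccttcaTTCAGGAAgtaaagcacga

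Ipo7 rose, whereas Tnpo1 and Nup58 did not pass the test (values below). The next 4 stretches belong to genes whose calls held under every alternative computed, 1 that rose (Nup210) and 3 that fell (Kpna7, Ipo13 and Nup42), and none of them holds either motif. Each runs from 110 to 11 bases before the start. They are at chr6:91116837-91116936 (Nup210, minus strand), chr5:145009647-145009746 (Kpna7, minus strand), chr4:117915010-117915109 (Ipo13, minus strand) and chr5:24164853-24164952 (Nup42, plus strand) and overlap no annotated exon. They differ in base composition. The Kpna7 stretch is 45.0% G or C with 2 CpG dinucleotides, against 75.0% with 13 for Nup210, 73.0% with 10 for Ipo13 and 59.0% with 8 for Nup42.
Nup210: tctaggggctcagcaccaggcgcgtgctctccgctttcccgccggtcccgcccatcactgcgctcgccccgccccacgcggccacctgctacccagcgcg
Kpna7: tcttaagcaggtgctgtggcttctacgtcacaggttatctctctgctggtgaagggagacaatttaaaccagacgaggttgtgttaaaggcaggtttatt
Ipo13: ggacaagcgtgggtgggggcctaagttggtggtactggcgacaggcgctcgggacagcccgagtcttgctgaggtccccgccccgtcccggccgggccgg
Nup42: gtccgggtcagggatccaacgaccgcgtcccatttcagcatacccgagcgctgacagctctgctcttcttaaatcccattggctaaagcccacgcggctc

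Across the transport genes the change was mixed in direction and, for most, moderate. Of the 49 genes tested 11 rose, beside 27.4% of all genes tested, and 14 fell, beside 33.5%. In all, 51.0% of these genes were called against 60.9% of all genes. The median log2 fold change was -0.17 for these genes and -0.12 for all genes, and the median absolute log2 fold change was 0.74 against 1.81. The 2 sets differ in level. Of the transport genes 48 had a mean of at least 5 CPM, whereas a filter at a mean of 1 CPM left 17983 genes of the table. The part of level in these differences was not tested. Log2 fold changes ran from -10.76 for Nup50l to 3.89 for Nup62cl. Both knockdown libraries lay above both WT libraries for 14 genes, beside 39.0% of all genes, and below both for 21, beside 43.7%. Of the 49 genes tested 18 were called and changed by at least 1 on the log2 scale, beside 58.5% of all genes tested. Summed over all 49 genes with a count, the transport genes held 9358 and 10586 CPM in WT and 6652 and 6388 CPM in the knockdown. The sum over all genes tested was lower in the knockdown as well (1169600, 1154900, 897930 and 821100 CPM). That sum is set by the TMM factors, which scale each library size, and is not a measured fall. The same factors enter the sums of the transport genes. Nup50l alone held 1041 and 803 CPM in WT and 0.571 and 0.484 CPM in the knockdown.

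The split of calls depended on the scaling. With library totals alone, 15 of these genes were called higher and 7 lower, and over all genes 8122 higher and 6679 lower against 6467 and 7902 with TMM. A further scaling used 16 synaptonemal complex and cohesin genes (below, chromosome-axis scaling), which encode the structures that hold paired chromosomes. With it 2 of the transport genes were called higher and 18 lower, and over all genes 2113 higher and 8850 lower. Those 16 genes did not move together: with TMM 8 rose and 1 fell, their log2 fold changes ran from -2.34 to 3.89 and their median was 1.07. These scalings put the all-gene median at 0.31 and -1.01 on the log2 scale, and that of the transport genes at 0.27 and -1.06. Under each of the 11 other settings computed, 2 genes stayed called higher (Nup62cl and Nup210) and 7 lower (Kpna7, Ipo13, Ipo4, Ipo5, Nup42, Nup210l and Nup50l). Kpna3, Cse1l and Xpo7 kept theirs in every one of those settings except the chromosome-axis scaling.

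**Figure D1:**
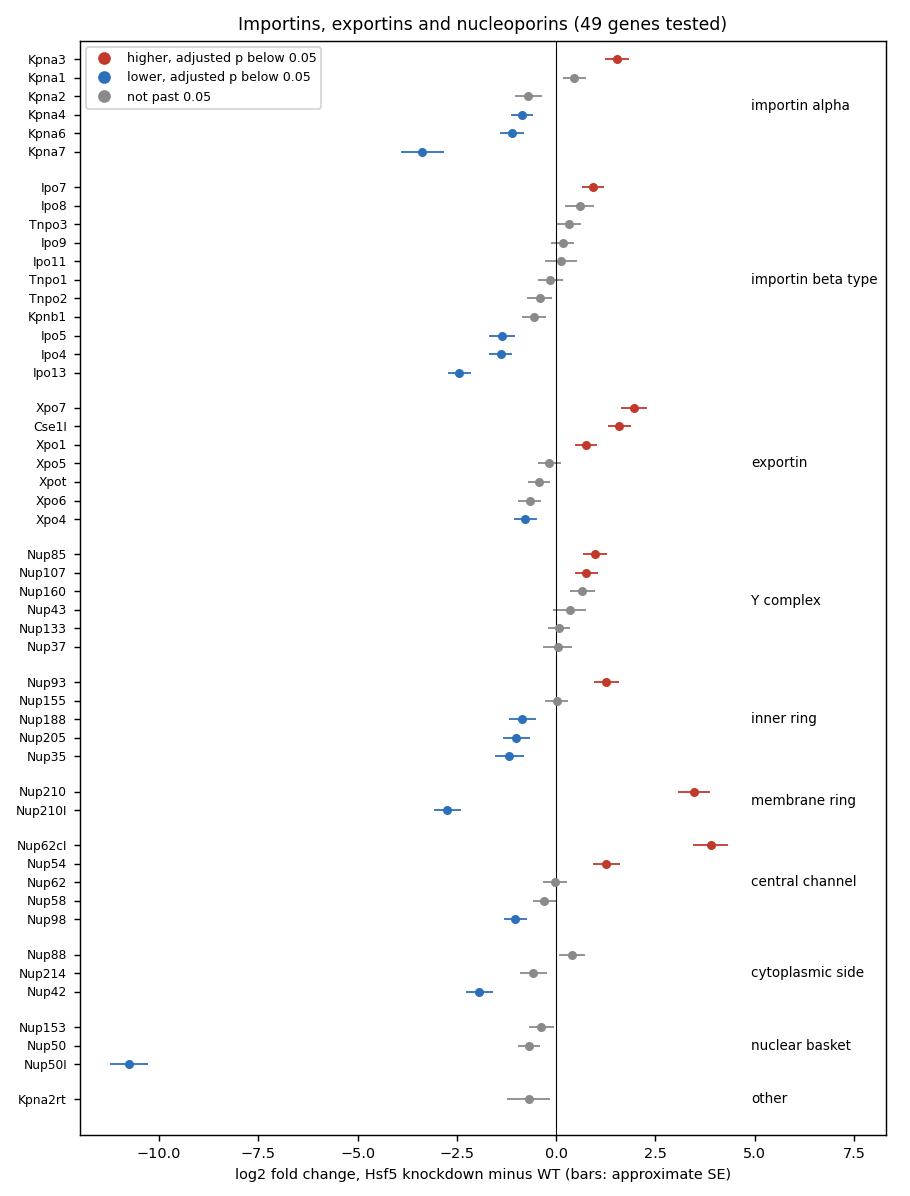
Log2 fold change (knockdown minus WT, horizontal axis) with its approximate SE for each of the 49 genes tested, ordered by role; red marks genes that rose, blue genes that fell and grey genes not past an adjusted p of 0.05. Nup50l stands at -10.76, and the next largest changes are Nup62cl (3.89), Nup210 (3.47), Kpna7 (-3.37), Nup210l (-2.74) and Ipo13 (-2.44).

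Among importin alpha genes, the adaptors that read the classical localization signal, Kpna3 rose and Kpna7, Kpna6 and Kpna4 fell. Kpna7, the oocyte-type and most divergent family member, was at 9.44 and 9.58 CPM in WT and at 1.10 and 0.726 CPM in the knockdown, 10.4-fold lower. Both knockdown values lay far under both WT values (log2 fold change -3.37, SE 0.54, adjusted p = 0.000738 in edgeR's quasi-likelihood test). Kpna3, a broadly expressed adaptor, went the other way, from 44.1 and 50.7 CPM in WT to 152 and 122 CPM. Its groups did not overlap, and the log2 fold change was 1.53 (SE 0.29, adjusted p = 0.00179). It was 0.59 (adjusted p = 0.366) with chromosome-axis scaling.

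Kpna6 was at 217 and 256 CPM in WT and at 92.6 and 127 CPM in the knockdown (log2 fold change -1.11, SE 0.30, adjusted p = 0.0107 in edgeR's quasi-likelihood test). Kpna4, which belongs to the same subfamily as Kpna3, was at 209 and 205 CPM and at 123 and 104 CPM (-0.87, SE 0.28, adjusted p = 0.0237). Both were thus lower in each knockdown library than in each WT library, but less firmly than Kpna7. Kpna6 lost its call without WT replicate 2 (-0.96, adjusted p = 0.106) and Kpna4 without WT replicate 1, without WT replicate 2 or without knockdown replicate 2 (-0.87, -0.86 and -0.75, adjusted p = 0.154, 0.155 and 0.0512), and scaling on library totals ended both (-0.66 and -0.43, adjusted p = 0.0812 and 0.164).

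Kpna2 and Kpna1 did not pass. Kpna2, the adaptor of proliferating and meiotic cells, was at 497 and 389 CPM in WT and at 337 and 208 CPM in the knockdown (log2 fold change -0.70, SE 0.34, adjusted p = 0.102 in edgeR's quasi-likelihood test). The knockdown values lay below the WT values, and the gene passed without knockdown replicate 1 (-1.01, adjusted p = 0.0153) and with chromosome-axis scaling (-1.67, adjusted p = 0.00737). Kpna1 was at 45.5 and 47.2 CPM and at 66.8 and 60.3 CPM (0.46, adjusted p = 0.202), and passed with library totals (0.89, adjusted p = 0.0212). Kpna2rt, a retrogene-like copy of Kpna2, stayed between 1.90 and 3.23 CPM in the 4 libraries. Reads of Kpna2 and its copies may have been split or lost in counting, so their counts are less certain.

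Per kilobase of transcript, which allows genes to be compared, Kpna2 held 73.9% and 66.9% of the importin alpha level in WT and 66.9% and 57.0% in the knockdown. Kpna3 held 3.31% and 4.40% in WT and 15.2% and 16.9% in the knockdown. Kpna2 thus led the family in every library, and Kpna3 moved from the fourth place in WT to the second in the knockdown. Kpna6 held 11.6% and 15.8% in WT and 6.61% and 12.5% in the knockdown, with ranges that overlap.

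**Figure D2:**
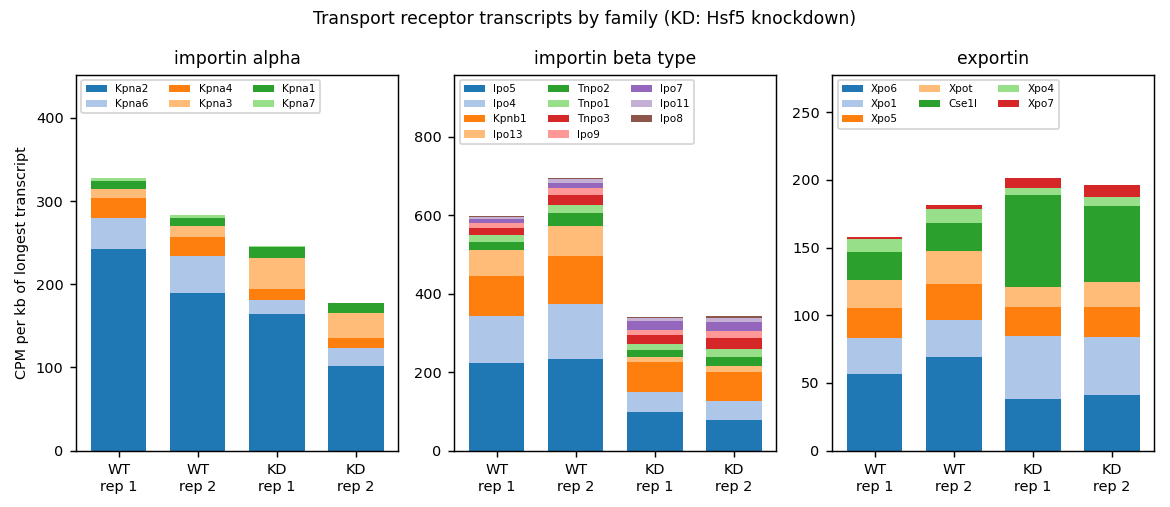
Level in CPM per kilobase of the longest transcript (vertical axis) of importin alpha, importin beta type and exportin genes, as 1 stacked bar for each of the 4 libraries. As a share of its bar, Kpna3 went from 3.31% and 4.40% in WT to 15.2% and 16.9% in the knockdown. The share of Ipo13 went from 11.0% and 11.2% to 3.60% and 4.11%, and that of Cse1l from 13.0% and 11.3% to 33.7% and 28.4%.

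Importin beta type genes encode receptors that bind cargo or adaptor and pass through the pore. Of these 11 genes 3 fell, 1 rose and 7 did not pass, with a median log2 fold change of -0.15. Of all genes tested 33.5% fell and 27.4% rose. The 3 that fell were, with Kpnb1, the 4 of highest WT level per kilobase among this type. Ipo13, which carries cargo in both directions, was at 236 and 279 CPM in WT and at 44.2 and 50.8 CPM in the knockdown, 5.41-fold lower. The 2 groups were far apart relative to their replicates (log2 fold change -2.44, SE 0.30, adjusted p = 0.00018 in edgeR's quasi-likelihood test). Ipo4, a receptor for histones and ribosomal proteins, was at 458 and 537 CPM and at 191 and 185 CPM (-1.40, SE 0.30, adjusted p = 0.003). Ipo5, which imports histones and ribosomal proteins as well, was at 1009.9 and 1054 CPM and at 446 and 354 CPM (-1.37, SE 0.32, adjusted p = 0.00512). Neither gene's groups overlapped.

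Ipo7, an importer of ribosomal proteins and of linker histone, was the 1 gene of this type that rose, from 53.7 and 62.8 CPM in WT to 110.2 and 112.5 CPM in the knockdown. Its replicates were close within each group (log2 fold change 0.93, SE 0.28, adjusted p = 0.0168 in edgeR's quasi-likelihood test). The call was lost without WT replicate 1 (0.81, adjusted p = 0.207), without WT replicate 2 (1.08, adjusted p = 0.0819) and with chromosome-axis scaling (0.04, adjusted p = 0.955). Its closest relative Ipo8 was at 16.4 and 20.6 CPM in WT and at 23.1 and 32.8 CPM in the knockdown (0.59, adjusted p = 0.188), and passed with library totals (1.04, adjusted p = 0.0376).

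Kpnb1, importin beta itself, was at 603 and 719 CPM in WT and at 460 and 436 CPM in the knockdown. The groups did not overlap, yet the log2 fold change of -0.56 (SE 0.31) had an adjusted p of 0.138 in edgeR's quasi-likelihood test, and it passed with chromosome-axis scaling (-1.47, adjusted p = 0.0209). The other 5 did not pass and had log2 fold changes of -0.42 (Tnpo2), -0.15 (Tnpo1), 0.12 (Ipo11), 0.16 (Ipo9) and 0.31 (Tnpo3). Each of these had overlapping groups, with adjusted p between 0.278 (Tnpo2) and 0.813 (Ipo11). Tnpo1 and Tnpo2 encode transportins, which import RNA-binding proteins, and Tnpo3 imports splicing factors. Tnpo2 was at 125 and 187 CPM in WT and at 102 and 131 CPM in the knockdown, and Tnpo1 at 154 and 177 CPM and at 118 and 179.5 CPM. Tnpo3 was at 68.7 and 108 CPM and at 96.9 and 123 CPM, Ipo9 at 75.9 and 102 CPM and at 92.1 and 107 CPM, and Ipo11 at 20.6 and 41.6 CPM and at 27.7 and 40.0 CPM. In all 5 WT replicate 2 was above WT replicate 1. Tnpo3 overlaps Irf5 and Ipo11 overlaps Lrrc70 in the annotation, so some reads of these pairs may have been counted for the other gene. Chromosome-axis scaling turned the direction of Ipo11 (-0.75), Ipo9 (-0.71), Tnpo3 (-0.57) and Ipo8 (-0.24), and library totals that of Tnpo2 (0.03) and Tnpo1 (0.30).

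By level per kilobase, Ipo5 stood first in WT among the 47 transport genes with a transcript length (mean 228 CPM per kilobase), followed by Kpna2 (216), Nup205 (160), Ipo4 (129) and Kpnb1 (112). In the knockdown Kpna2 stood first, then Ipo5, Nup205 and Kpnb1, so 4 of the leading 5 were shared. The replicate ranges of Ipo5 (224 to 233) and Kpna2 (189 to 242) overlapped in WT, so that their order is not beyond the spread. Within the beta type genes, whose summed level was 598 and 694 CPM per kilobase in WT and 342 and 343 in the knockdown, Ipo5 held 37.4% and 33.6% in WT and 28.9% and 22.8% in the knockdown. Ipo13 held 11.0% and 11.2% in WT and 3.60% and 4.11% in the knockdown.

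Among the 7 exportins 3 rose, 1 fell and 3 did not pass the test, beside 27.4% of all genes tested that rose and 33.5% that fell. With chromosome-axis scaling 0 exportins were called higher and 2 lower. Whether the split of exportins differs from that of importins was not tested. Cse1l, which returns importin alpha to the cytoplasm, was at 74.6 and 74.5 CPM in WT and at 247 and 203 CPM in the knockdown, 3.02-fold higher. The WT values were nearly equal and the groups did not overlap (log2 fold change 1.59, SE 0.29, adjusted p = 0.00135 in edgeR's quasi-likelihood test). Xpo7, an exportin with roles in red cell maturation, was at 24.6 and 38.1 CPM and at 109.8 and 134 CPM (1.96, SE 0.33, adjusted p = 0.00092), and overlaps Dok2 in the annotation. With chromosome-axis scaling neither passed (0.67 and 1.07, adjusted p = 0.272 and 0.157).

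Xpo1, the main exporter of proteins with leucine-rich export signals, was at 159 and 164 CPM in WT and at 280.1 and 260.0 CPM in the knockdown. The groups did not overlap (log2 fold change 0.74, SE 0.28, adjusted p = 0.0439 in edgeR's quasi-likelihood test). The call was lost with DESeq2 (0.72, adjusted p = 0.1), with a filter at a mean of 1 CPM (0.68, adjusted p = 0.0518), without WT replicate 1 (0.70, adjusted p = 0.304) and without WT replicate 2 (0.79, adjusted p = 0.242), and the direction turned with chromosome-axis scaling (-0.16).

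Xpo4 was the 1 exportin that fell, from 85.6 and 92.4 CPM in WT to 44.5 and 59.3 CPM in the knockdown (log2 fold change -0.78, SE 0.30, adjusted p = 0.0447 in edgeR's quasi-likelihood test). It exports proteins that include the translation factor eIF5A. Its call stood near the threshold and was lost with DESeq2 (-0.80, adjusted p = 0.0865), with library totals (-0.33, adjusted p = 0.356), with no filter on low counts (-0.74, adjusted p = 0.0908), and on leaving out knockdown replicate 1 (-0.51, adjusted p = 0.239), WT replicate 1 (-0.85, adjusted p = 0.149) or WT replicate 2 (-0.70, adjusted p = 0.232). Xpo6, the exporter of actin, was at 417 and 505 CPM in WT and at 279 and 300.2 CPM in the knockdown, with groups that did not overlap (-0.67, SE 0.30, adjusted p = 0.0766). It passed without knockdown replicate 2 (-0.72, adjusted p = 0.0496) and with chromosome-axis scaling (-1.56, adjusted p = 0.0214). Xpot, which exports transfer RNA, and Xpo5, which exports microRNA precursors, had log2 fold changes of -0.43 and -0.17 and did not pass (adjusted p = 0.216 and 0.621). Xpot was at 125 and 148 CPM in WT and at 91.3 and 111 CPM in the knockdown, with no overlap, and Xpo5 at 112 and 136 CPM and at 108 and 112 CPM, with overlap. Library totals turned both directions (0.01 and 0.27).

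Summed per kilobase, exportin levels were 158 and 181 in WT and 201 and 196 in the knockdown, while importin alpha levels were 328 and 283 in WT and 245 and 178 in the knockdown. Cse1l held 13.0% and 11.3% of the exportin level in WT and 33.7% and 28.4% in the knockdown, and moved from place 27 to place 7 among the 47 genes. Xpo6 held 36.0% and 38.0% in WT and 18.9% and 20.9% in the knockdown. Per kilobase of the longest transcript, the leading exportin was therefore Xpo6 in both WT libraries and Cse1l in both knockdown libraries. In CPM, not corrected for length, Xpo6 stayed above Cse1l in both knockdown libraries (279 and 300.2 against 247 and 203). Xpo1 (280.1 and 260.0) was above Cse1l in both as well, so the lead of Cse1l rests on the transcript lengths used. Xpo7's level per kilobase was computed on a longest transcript of 15121 bases, far longer than its other transcripts, and is understated for it.

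**Figure D3:**
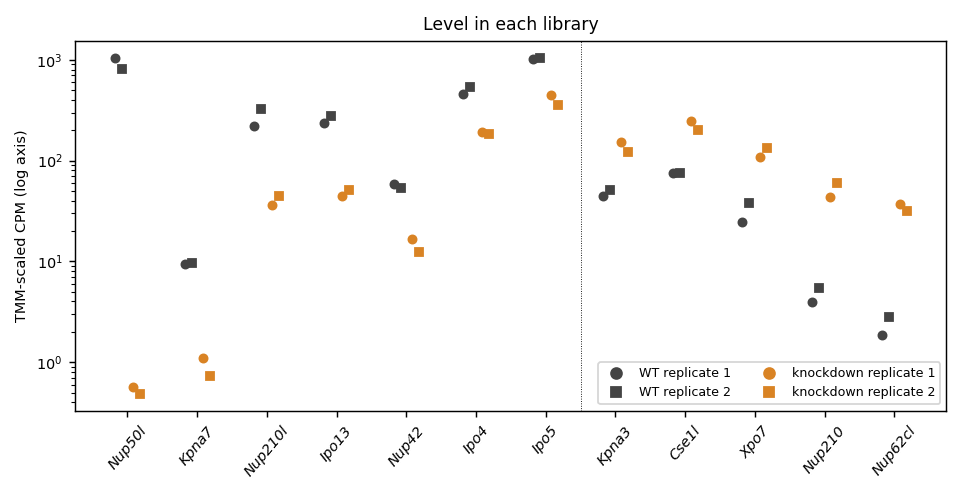
TMM-scaled CPM on a log axis in each of the 4 libraries for the 12 genes whose calls held under at least 10 of the 11 other settings, WT in dark grey and knockdown in orange, with circles for replicate 1 and squares for replicate 2. The 7 genes on the left fell and the 5 on the right rose, and in none do the groups overlap. The genes were picked by their calls, so this separation follows from the choice. Of all genes tested, 39.0% had both knockdown libraries above both WT libraries and 43.7% had both below.

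Nucleoporins numbered 24, of which 6 rose, 7 fell and 11 did not pass, with a median log2 fold change of -0.01. The Y complex is the scaffold of the outer rings. Of its 6 genes that the symbol rule takes, 2 rose, none fell and 4 were not past the test. Other subunits are given below. Nup85 was at 63.0 and 61.2 CPM in WT and at 143 and 99.6 CPM in the knockdown (log2 fold change 0.97, SE 0.30, adjusted p = 0.0198 in edgeR's quasi-likelihood test). Nup107 was at 84.3 and 82.2 CPM and at 164 and 118 CPM (0.76, SE 0.30, adjusted p = 0.0487). In both genes the WT replicates nearly coincided and knockdown replicate 1 was the highest.

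Nup160 was at 28.7 and 35.5 CPM and at 47.6 and 53.3 CPM, with no overlap, and did not pass (0.65, adjusted p = 0.0993), but passed with library totals (1.09, adjusted p = 0.0147). Nup43, Nup133 and Nup37 had log2 fold changes of 0.34, 0.07 and 0.04 and overlapping groups. They were at 16.0 and 11.9 CPM in WT and 21.8 and 13.6 CPM in the knockdown (Nup43), at 104 and 119.7 CPM and 125 and 109 CPM (Nup133), and at 46.8 and 33.3 CPM and 51.6 and 30.6 CPM (Nup37). The 2 calls were fragile. Nup85 was not past the test without knockdown replicate 1 (0.76, adjusted p = 0.0777), WT replicate 1 (0.97, adjusted p = 0.128) or WT replicate 2 (0.97, adjusted p = 0.12), nor with chromosome-axis scaling (0.01, adjusted p = 0.994). Nup107 was lost with DESeq2 (0.73, adjusted p = 0.108), with DESeq2 size factors (0.70, adjusted p = 0.0566), with a filter at a mean of 1 CPM (0.70, adjusted p = 0.0584), without knockdown replicate 1 (0.57, adjusted p = 0.152), WT replicate 1 (0.76, adjusted p = 0.243) or WT replicate 2 (0.77, adjusted p = 0.231). All 6 genes but Nup85 turned negative with chromosome-axis scaling (Nup37 -0.93, Nup133 -0.86, Nup43 -0.62, Nup160 -0.23 and Nup107 -0.20).

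The inner ring, which anchors the channel to the scaffold, split. Nup93, the linker at its centre, rose from 57.4 and 80.2 CPM in WT to 181 and 149.6 CPM in the knockdown (log2 fold change 1.27, SE 0.31, adjusted p = 0.00591 in edgeR's quasi-likelihood test). Nup205 and Nup188, the 2 large paralogs that bind Nup93, fell. Nup205 was at 827 and 1222 CPM and at 488 and 536 CPM (-1.0, SE 0.34, adjusted p = 0.0279), and Nup188 at 415 and 624 CPM and at 262 and 314 CPM (-0.85, SE 0.33, adjusted p = 0.0471). For both, WT replicate 2 was well above WT replicate 1, and both WT values exceeded both knockdown values. Nup35, a membrane-binding subunit, fell from 50.7 and 33.5 CPM to 21.5 and 15.8 CPM (-1.18, SE 0.37, adjusted p = 0.0203), and Nup155, at 89.1 and 93.8 CPM and at 77.5 and 107 CPM, had a log2 fold change of 0.01 (adjusted p = 0.979).

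Per kilobase the mean of Nup205 was 160 in WT and 79.8 in the knockdown and that of Nup93 23.5 and 56.5, so Nup205 stayed above Nup93 in both groups. Without WT replicate 2 the values were -0.67 for Nup205 (adjusted p = 0.34) and -0.50 for Nup188 (adjusted p = 0.465), and without WT replicate 1 Nup93 had 1.03 (adjusted p = 0.114), Nup35 -0.86 (adjusted p = 0.151) and Nup188 -1.13 (adjusted p = 0.0705). Nup188 was lost with DESeq2 (-0.87, adjusted p = 0.064) and on leaving out knockdown replicate 1 (-0.66, adjusted p = 0.113), and Nup35 without knockdown replicate 2 (-0.96, adjusted p = 0.0934). Library totals ended the calls of Nup205 (-0.56, adjusted p = 0.148), Nup188 (-0.41, adjusted p = 0.284) and Nup35 (-0.75, adjusted p = 0.0955), and chromosome-axis scaling that of Nup93 (0.31, adjusted p = 0.644).

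The membrane ring is formed by Nup210, a single-pass protein in the lumen of the nuclear envelope, and its paralog Nup210l, whose transcript is known mainly from testis. The 2 genes moved in opposite directions. Nup210l fell from 218 and 323 CPM in WT to 35.9 and 45.0 CPM in the knockdown, 6.69-fold lower (log2 fold change -2.74, SE 0.33, adjusted p = 0.000173 in edgeR's quasi-likelihood test). Nup210 rose from 3.93 and 5.49 CPM to 43.6 and 60.5 CPM, 11.1-fold higher (3.47, SE 0.40, adjusted p = 0.00013). Neither gene had overlapping groups.

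Per kilobase, Nup210 made up 1.44% and 1.36% of the pair's level in WT and 49.6% and 52.2% in the knockdown. The pair therefore went from nearly all Nup210l to about equal parts. The summed level per kilobase of both was 38.8 and 57.4 in WT and 12.5 and 16.5 in the knockdown. Log2 fold changes over the settings ran from -3.62 to -2.30 for Nup210l and from 2.62 to 3.91 for Nup210. Beside these values stand the spermatogonial and Sertoli marker sums, which were higher in the knockdown, and the spermatid marker sums, which were lower, and their part in the change of the pair was not tested.

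Of the 5 central channel genes, which make the selective barrier, 2 rose and 1 fell. Of all genes tested 27.4% rose and 33.5% fell. Nup62cl, an X-linked paralog of Nup62, was at 1.85 and 2.78 CPM in WT and at 36.7 and 31.8 CPM in the knockdown, 14.8-fold higher. It was the gene with the highest rise among the 49, and its groups were far apart (log2 fold change 3.89, SE 0.43, adjusted p = 0.000112 in edgeR's quasi-likelihood test). Nup62 itself was at 200.5 and 218 CPM and at 232 and 178 CPM, with overlapping groups (-0.03, adjusted p = 0.93). Per kilobase Nup62cl was 1.24% and 1.70% of the pair in WT and 17.8% and 19.6% in the knockdown. Nup62cl was the only X-linked gene among the 48 with a RefSeq entry. Spermatogonial and Sertoli cell marker sums were also higher in the knockdown libraries, and their part in the rise of Nup62cl was not tested.

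Nup54, a partner of Nup62 in the channel, rose from 36.9 and 31.5 CPM to 99.9 and 64.5 CPM (log2 fold change 1.26, SE 0.33, adjusted p = 0.00866 in edgeR's quasi-likelihood test), whereas Nup58, the other partner, was at 160.2 and 177 CPM and at 147 and 128 CPM (-0.30, adjusted p = 0.384). Nup98, a mobile channel protein that also binds chromatin, fell from 343 and 413 CPM to 186 and 183 CPM (-1.04, SE 0.29, adjusted p = 0.0125), and overlaps Art1 and Pgap2 in the annotation. The 3 members of the Nup62 complex, Nup62, Nup58 and Nup54, therefore did not move alike, with 1 past the test. Nup54 was lost without knockdown replicate 1 (0.99, adjusted p = 0.0519), without WT replicate 2 (1.18, adjusted p = 0.0521) and with chromosome-axis scaling (0.30, adjusted p = 0.66), and Nup98 without WT replicate 1 (-1.18, adjusted p = 0.053), without WT replicate 2 (-0.87, adjusted p = 0.163) and with library totals (-0.60, adjusted p = 0.0795).

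On the cytoplasmic side, where messenger RNA is released from the pore, Nup42 fell from 58.4 and 53.2 CPM in WT to 16.6 and 12.5 CPM in the knockdown. Nup42 anchors the RNA helicase activator Gle1, and its fall was 3.84-fold (log2 fold change -1.94, SE 0.34, adjusted p = 0.00114 in edgeR's quasi-likelihood test). Nup214 was at 89.5 and 138 CPM and at 58.6 and 94.2 CPM (-0.58, adjusted p = 0.178), and passed without knockdown replicate 2 (-0.96, adjusted p = 0.0474). Its partner Nup88 was at 181 and 162 CPM and at 277 and 175 CPM (0.40, adjusted p = 0.305). Both had overlapping groups. Nup88 passed with library totals (0.82, adjusted p = 0.0348) and turned negative with chromosome-axis scaling (-0.58).

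The nuclear basket held the gene with the largest change. Nup50l, a paralog of Nup50, had 34964 and 23114 counts in WT and 27 and 20 in the knockdown, or 1041 and 803 CPM against 0.571 and 0.484 CPM. This is a 1732-fold fall with few counts behind the knockdown value (log2 fold change -10.76, SE 0.48, adjusted p = 4.86e-06 in edgeR's quasi-likelihood test). Over the settings the log2 fold change was between -11.68 and -10.33. The 7 spermatid markers had a summed CPM of 3187 and 1529 in WT and of 0.487 and 0.412 in the knockdown, and whether the fall of Nup50l goes with the share of spermatid RNA in the WT libraries was not tested. In WT both that sum and Nup50l were higher in replicate 1, but the order of 2 libraries cannot show a link.

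Nup50, which speeds the release of cargo from importin alpha, was at 201 and 188 CPM in WT and at 131 and 111 CPM in the knockdown, with no overlap (log2 fold change -0.68, SE 0.28, adjusted p = 0.0609 in edgeR's quasi-likelihood test). It passed with DESeq2 size factors (-0.74, adjusted p = 0.038), with a filter at a mean of 1 CPM (-0.74, adjusted p = 0.041) and with chromosome-axis scaling (-1.59, adjusted p = 0.0174). There were 5.19 and 4.28 counts of Nup50l for each count of Nup50 in WT, and 0.00435 and 0.00436 in the knockdown, not corrected for length. Nup153, the anchor of the basket, was at 198 and 268 CPM and at 157 and 204 CPM, with overlapping groups (-0.37, adjusted p = 0.318). Library totals turned its direction (0.07).

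**Figure D4:**
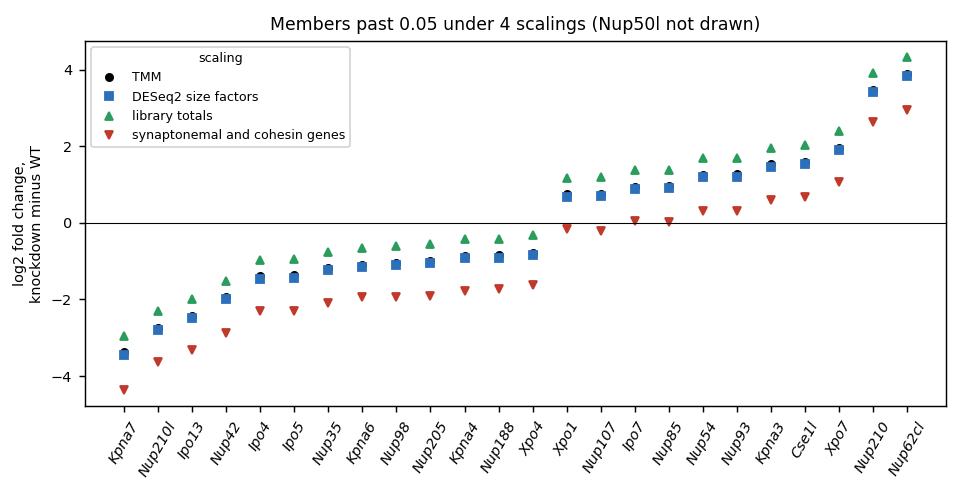
Log2 fold change (vertical axis, knockdown minus WT) of the 24 genes past an adjusted p of 0.05 other than Nup50l, under TMM, DESeq2 size factors, library totals and chromosome-axis scaling. Scaling shifts all genes together, and Xpo1 and Nup107 cross 0 (to -0.16 and -0.20) under the last of these.

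Genes that work with these receptors and pores, 57 in 5 lists, were tested in the same fit. The counts of each list stand beside 27.4% of all genes tested that rose and 33.5% that fell. Of 8 genes of the Ran cycle, which gives transport its direction, 2 rose and 3 fell. Rcc1, the chromatin-bound exchange factor that loads Ran with GTP, was at 153 and 123 CPM in WT and at 39.4 and 33.8 CPM in the knockdown (log2 fold change -1.92, SE 0.30, adjusted p = 0.000621 in edgeR's quasi-likelihood test). Rangrf, which binds Ran and releases its nucleotide, fell as well (-1.65, SE 0.35, adjusted p = 0.00321), and Nutf2, the importer of Ran itself, rose (1.78, SE 0.35, adjusted p = 0.00209). In none of the 3, which were named for the smallest p of their list, did the groups overlap. With chromosome-axis scaling Nutf2 did not pass (0.81, adjusted p = 0.292).

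Of 7 other carriers, 2 rose and 4 fell. Hikeshi, the importer of Hsp70 during heat stress, was at 3.78 and 3.06 CPM in WT and at 27.9 and 15.8 CPM in the knockdown (log2 fold change 2.68, SE 0.47, adjusted p = 0.00112 in edgeR's quasi-likelihood test). Phax, the adaptor that exports small nuclear RNA with Xpo1, rose (2.36, SE 0.41, adjusted p = 0.00112), and Ranbp17, a relative of Xpo7 known from testis, fell (-1.63, SE 0.29, adjusted p = 0.00127). Xpo7 and Ranbp17 thus moved in opposite directions. Chromosome-axis scaling ended the calls of Hikeshi (1.69, adjusted p = 0.0622) and Phax (1.34, adjusted p = 0.108).

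Of 11 nucleoporins whose symbols the rule does not take, 3 rose and 3 fell. Pom121l2 and Pom121l12, relatives of the membrane nucleoporin Pom121, fell (log2 fold change -6.12, SE 0.42, and -4.81, SE 0.40). Pom121l2 went from 499 and 624 CPM to 6.11 and 10.02 CPM, while Pom121 was at 265 and 337 CPM in WT and at 172 and 240.3 CPM in the knockdown and did not pass (-0.54, adjusted p = 0.159 in edgeR's quasi-likelihood test). Seh1l, a Y complex subunit, rose (2.42, SE 0.39, adjusted p = 0.000718), a call lost with chromosome-axis scaling (1.48, adjusted p = 0.0929). Ahctf1, another subunit of that complex, fell (-0.87, SE 0.30, adjusted p = 0.0292), and Sec13, a further subunit, did not pass (0.20, adjusted p = 0.599).

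Of 21 messenger RNA export genes, 7 rose and 5 fell. The 3 with the smallest p, Nxf3 (log2 fold change 4.03, SE 0.50), Nxf2 (3.00, SE 0.43) and Thoc2 (3.23, SE 0.55), rose and are X-linked. Whether X-linked genes rose more often than others was not tested. Nxf2 and Nxf3 are relatives of the general exporter Nxf1, which had -0.41 and did not pass (adjusted p = 0.251 in edgeR's quasi-likelihood test). Of the other X-linked genes of the list, Nxt2 rose and Nxf7 did not pass. Of 10 genes of the nuclear lamina and inner membrane, 3 rose and 2 fell. The X-linked Emd rose (1.87, SE 0.42, adjusted p = 0.00429) and lost its call with chromosome-axis scaling (0.97, adjusted p = 0.264). Of the B-type lamins Lmnb1 rose (1.24, SE 0.31, adjusted p = 0.00724) and Lmnb2 fell (-1.29, SE 0.33, adjusted p = 0.00753). Neither passed without WT replicate 1 (1.03 and -1.07, adjusted p = 0.101 and 0.0649), nor did Lmnb1 with chromosome-axis scaling (0.27, adjusted p = 0.706).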

How the data were processed

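The authors deposited 1 table of raw read counts per gene symbol with 1 column per library, and each column was matched to its sample by name. Per the submitters' processing notes, the genome build was mm39 and the tools were DESeq2 1.46.0, featureCounts 1.5.3, HISAT2 2.2.1 and Trim Galore 0.6.10. Which annotation and strand setting were used, and how multi-mapping reads were handled, is not given in the sources used here. Near-identical copies and overlapping genes are therefore counted less surely, and 10 of the genes overlap another protein-coding gene, and 32 any RefSeq gene.

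Testing used edgeR 4.0.16 under R 4.3.3. The filterByExpr function left 23594 of 36809 genes with a count, with TMM factors of 0.854, 0.865, 1.11 and 1.22. Knockdown was compared with WT by the quasi-likelihood F test. The biological coefficient of variation was 0.356. An SE was taken as the absolute log2 fold change over the root of F. Replicates differed by more than sampling noise (the chi-square over its degrees of freedom was 57.0 for WT and 123 for the knockdown). Counts were also simulated with these library sizes, with a small part of 23426 genes changed, equally up and down. There, 2.33% of genes changed by 2-fold and 37% of those changed by 4-fold were called, and 4.84% of calls were false. In the data 60.9% of genes tested were called, so these rates do not carry over to the calls reported here. Levels per kilobase use the longest transcript of each symbol in GENCODE M21 (GRCm38), found for 47 genes. RefSeq entries matched 48 genes, 2 by an older symbol.

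The genes, the pathway, marker and scaling lists and the tests were chosen with earlier results of these data known. By the rule for named genes, up to 4 genes in each direction were named per role and 3 per pathway list, and the other members by direction. Any other value given beside these was chosen after values were seen. Alternatives were DESeq2 1.42.0, 3 other scalings, 2 other filters, a block on the replicate number, each library left out in turn, and a log2 fold change of at least 1.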

Additional observations from a re-analysis of the deposited data

How the results depend on the processing

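With 2 libraries a group, a change can be missed, and a gene not past the test is not shown to be unchanged. Where a library is left out, its group has 1 sample, which is assumed to vary like the other group. The cause of the changes below was not tested. Library totals gave 7 of the genes lower, 4 importins higher, 0 exportins lower, 3 nucleoporins lower and Hsf5 -0.55, and reversed Xpot (0.01), Xpo5 (0.27), Tnpo2 (0.03), Tnpo1 (0.30), Nup58 (0.14), Nup62 (0.40) and Nup153 (0.07). Scaling on synaptonemal complex and cohesin genes gave 2113 genes of the table higher, and among the transport genes 2 higher and 18 lower. This scaling gave 0 importins and 0 exportins higher, 2 exportins lower and 2 nucleoporins higher. It reversed Xpo1 (-0.16), Kpna1 (-0.45), Ipo11 (-0.75), Ipo9 (-0.71), Tnpo3 (-0.57), Ipo8 (-0.24), Nup37 (-0.93), Nup133 (-0.86), Nup43 (-0.62), Nup160 (-0.23), Nup107 (-0.20), Nup88 (-0.58) and Nup155 (-0.81). Nup155 also turned with DESeq2 (-0.01), DESeq2 size factors (-0.04), a filter at 1 CPM (-0.05) and the block (-0.01), Nup37 with DESeq2 size factors (-0.03) and the 1 CPM filter (-0.02), and Nup62 with no filter (0.00). Exportins lower numbered 0 with DESeq2 and with no filter. A log2 fold change of at least 1 left 7 genes higher, 1 importin higher and 0 exportins lower. Labels do not say that replicate numbers pair libraries, and same-numbered libraries deviated together with a correlation of 0.212 (1 pair of deviations). The replicate block gave 12 genes higher and 18 lower, with 2 exportins lower, and added Xpo6 (-0.66), Kpna2 (-0.73), Nup160 (0.66), Nup214 (-0.58) and Nup50 (-0.68) to the calls.

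Leaving out 1 library gave 6 to 11 genes higher and 8 to 14 lower, 1 to 2 importins higher, 0 to 2 exportins lower, 3 to 6 nucleoporins higher and 4 to 7 lower, and for Hsf5 -1.13 to -0.79. It gave Xpo5 -0.32 to 0.00, Tnpo1 -0.49 to 0.19, Ipo11 -0.32 to 0.74, Ipo9 -0.05 to 0.42, Nup37 -0.31 to 0.37, Nup133 -0.05 to 0.20, Nup62 -0.17 to 0.15 and Nup155 -0.24 to 0.29.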
